A study of Homo sapiens with 4 samples.

Results

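The CDKN2A locus lies on the short arm of chromosome 9 at 9p21, and the peaks described here are those that overlap chr9:20802636-23455740 on GRCh38. These bounds run from 1 Mb below the start of MTAP to 1 Mb above the end of DMRTA1 and enclose CDKN2A and CDKN2B. The window holds 92 of 102760 and 86 of 99508 peaks in DEK KO replicates 1 and 2, and 81 of 89563 and 76 of 90409 peaks in WT control replicates 1 and 2. Merged across libraries where peaks share at least 1 bp, they form 109 of the 138467 regions of the series.

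The data are ATAC-seq peak lists, which mark DNA open to a transposase, from 786-O, an established human clear cell renal carcinoma line. The 2 DEK KO libraries come from cells with Cas9 and guide RNAs against DEK, a DNA-binding chromatin protein, that the labels describe as single-cell sorted. The 2 WT control libraries come from negative control cells with a wild-type DEK genotype. All 4 libraries share the Cas9-expressing background, itself a clone. The labels do not say whether replicates are separate clones or cultures, so a p-value reflects no more than how far these libraries differ among themselves, possibly for technical reasons. Peaks do not measure DEK itself, so the knockout could not be checked here. No read depth is given with the lists. Of the renal line genes checked, PAX8 and VIM had a peak within 1 kb of a gene end in all 4 lists and PAX2 in none, whereas the blood genes PTPRC and CD3E had none in any list. The spans of PAX2 and PTPRC each held 3 regions called in all 4 lists.

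CDKN2A encodes p16INK4a, an inhibitor of the cyclin D kinases CDK4 and CDK6, and, from another first exon read in a different frame, ARF, which binds and restrains MDM2. Its neighbour CDKN2B encodes p15INK4b, a close relative of p16INK4a, and the antisense transcript CDKN2B-AS1 (ANRIL) starts beside the upstream first exon of CDKN2A. MTAP encodes the phosphorylase that recycles methylthioadenosine into methionine, and its loss leaves the methyltransferase PRMT5 partly inhibited. DMRTA1 encodes a DM-domain transcription factor. The 9p21 segment is among those most often deleted in human tumours, renal carcinoma included, and MTAP is often lost with CDKN2A.

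The promoter windows of the 4 genes are shown because some carried a peak in every library and others in none. Each runs from 250 bases before to 50 bases after a start, 5′ to 3′ on the gene's strand, as given by RefSeq for GRCh38.p14, and CG pairs are in capitals.
MTAP, chr9:21802386-21802685, plus strand: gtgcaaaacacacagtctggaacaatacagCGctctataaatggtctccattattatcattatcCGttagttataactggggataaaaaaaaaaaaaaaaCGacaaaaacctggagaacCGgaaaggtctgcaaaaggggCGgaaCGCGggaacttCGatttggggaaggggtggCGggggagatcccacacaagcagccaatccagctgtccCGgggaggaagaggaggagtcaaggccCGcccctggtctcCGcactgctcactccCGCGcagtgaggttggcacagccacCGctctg
CDKN2A start of lower coordinate, chr9:21974808-21975107, minus strand: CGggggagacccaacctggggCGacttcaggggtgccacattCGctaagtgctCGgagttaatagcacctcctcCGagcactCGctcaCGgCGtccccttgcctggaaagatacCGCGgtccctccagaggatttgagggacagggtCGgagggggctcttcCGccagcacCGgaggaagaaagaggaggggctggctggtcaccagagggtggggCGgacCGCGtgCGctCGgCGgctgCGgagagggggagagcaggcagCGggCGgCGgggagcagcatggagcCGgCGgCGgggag
CDKN2A start of higher coordinate, chr9:21995275-21995574, minus strand: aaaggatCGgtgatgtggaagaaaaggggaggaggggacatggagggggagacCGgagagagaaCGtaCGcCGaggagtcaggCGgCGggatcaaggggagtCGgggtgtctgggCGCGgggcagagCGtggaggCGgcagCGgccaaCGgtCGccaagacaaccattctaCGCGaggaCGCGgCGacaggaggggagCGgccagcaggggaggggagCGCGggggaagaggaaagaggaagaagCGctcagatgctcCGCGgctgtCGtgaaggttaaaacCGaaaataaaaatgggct
CDKN2B, chr9:22009256-22009555, minus strand: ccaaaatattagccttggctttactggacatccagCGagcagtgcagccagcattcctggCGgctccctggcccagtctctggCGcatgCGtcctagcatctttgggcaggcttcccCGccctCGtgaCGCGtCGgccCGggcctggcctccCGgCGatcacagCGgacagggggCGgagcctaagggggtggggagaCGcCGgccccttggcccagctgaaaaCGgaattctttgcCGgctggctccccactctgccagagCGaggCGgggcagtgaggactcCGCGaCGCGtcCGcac
DMRTA1, chr9:22446574-22446873, plus strand: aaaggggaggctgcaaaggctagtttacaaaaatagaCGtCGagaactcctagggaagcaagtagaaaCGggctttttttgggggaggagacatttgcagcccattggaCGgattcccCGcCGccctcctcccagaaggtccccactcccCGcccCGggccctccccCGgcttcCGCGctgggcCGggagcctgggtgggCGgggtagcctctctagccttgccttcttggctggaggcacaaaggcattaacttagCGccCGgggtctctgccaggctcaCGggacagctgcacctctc
The MTAP and DMRTA1 windows were overlapped by a peak in all 4 lists. Neither CDKN2A window nor the CDKN2B window was overlapped in any.

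CDKN2A and CDKN2B lay together in a stretch without a peak in any of the 4 lists. It ran from 21931844 to 22136943, a length of 205.1 kb. Inside it were the whole of CDKN2A (21967752 to 21995324), CDKN2B (22002903 to 22009313) and CDKN2B-AS1 (21994791 to 22128142), the noncoding RNA genes CDKN2A-AS1 and LOC124902130, the pseudogene UBA52P6, and the last 9.27 kb of the MTAP span. A peak list holds no signal outside its peaks, so missing DNA and DNA without open sites cannot be told apart from these files.

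Taken list by list, the stretch over CDKN2A measured 208.1 and 227.8 kb in DEK KO replicates 1 and 2, and 216.9 and 205.3 kb in WT control replicates 1 and 2. The genotypes overlapped, with 218 ± 13.9 kb in DEK KO and 211 ± 8.21 kb in the controls (SD, n = 2 each, exact permutation test, two-sided, p = 0.667, where 0.333 is the smallest that 2 against 2 allows). Between regions called in all 4 lists the distance was longer, 288.4 kb, from 21920432 to 22208791.

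**Figure D1:**
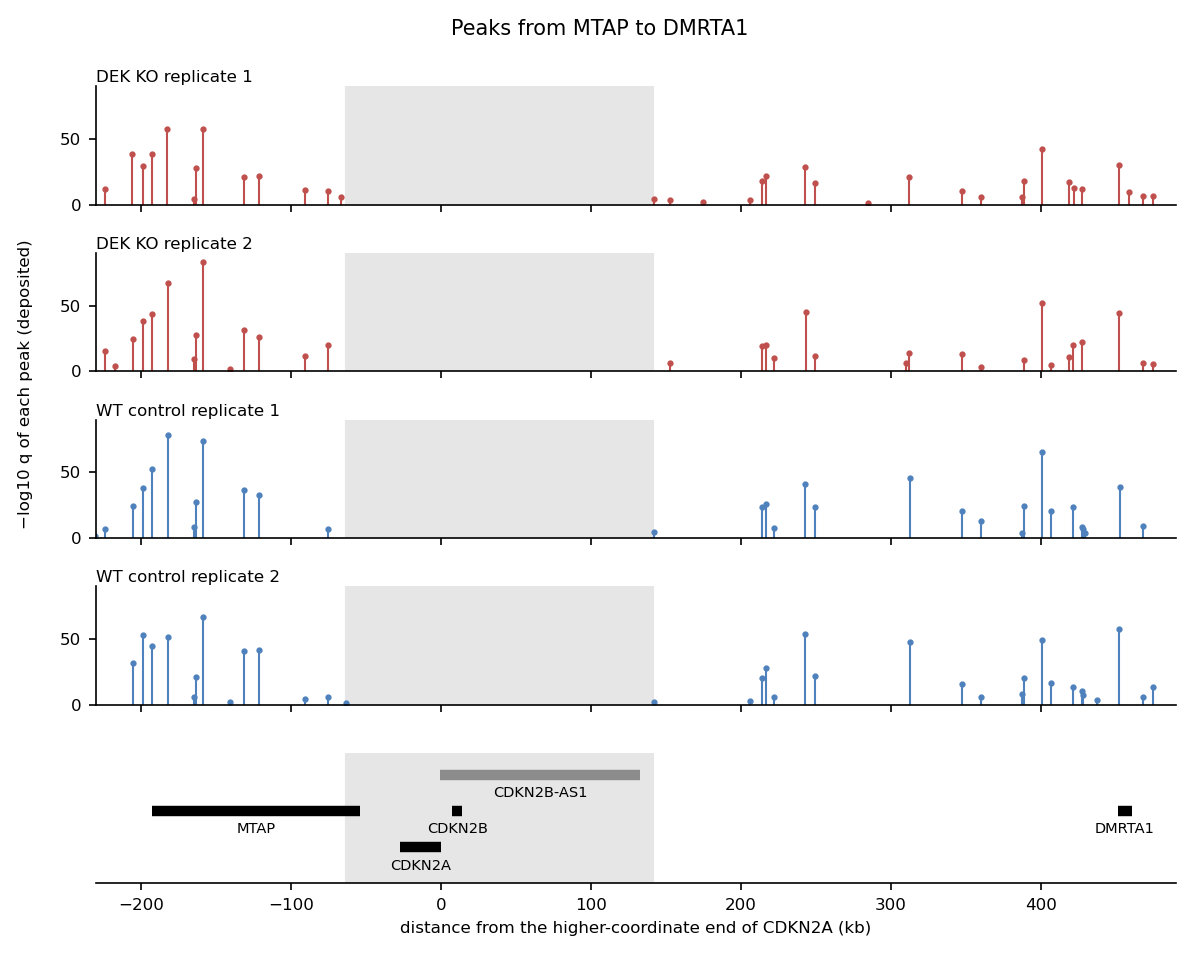
Deposited −log10 q of each peak (vertical lines) in DEK KO replicates 1 and 2 and WT control replicates 1 and 2, against the distance in kb from the higher-coordinate end of CDKN2A, with member genes in black below. The grey stretch of 205.1 kb holds no peak in any library, and the peaks at its edges are among the lowest shown.

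The edges of the stretch were marked by weak peaks. On the MTAP side the last peak was called only in WT control replicate 2 (21931514 to 21931843), with a fold enrichment over background of 2.66, as the authors' peak caller gave it, and a −log10 q of 1.37, close to the limit of calling. The one before it (21928534 to 21928881) was called only in DEK KO replicate 1, with a fold of 4.80. The nearest region called in every list lay 11.4 kb from the stretch, inside MTAP (21919462 to 21920431). DEK KO replicates 1 and 2 had folds of 6.49 and 8.93 there, against 5.07 and 4.53 in WT control replicates 1 and 2. Its percentiles of −log10 p within the lists were 44.6 and 59.1 in DEK KO and 24.4 and 24.3 in the controls. Folds and percentiles are scaled within each list and the lists differ in length, so values set side by side here and below are a description and show no change between genotypes.

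On the DMRTA1 side the first peak (22136944 to 22137594) was called in 3 lists. It had a fold of 4.12 in DEK KO replicate 1, none in DEK KO replicate 2, and 4.12 and 2.95 in WT control replicates 1 and 2. The next (22147867 to 22148387) was present in DEK KO replicates 1 and 2, at folds of 3.77 and 5.18, and absent from the control lists. Weak calls in 1 or 2 lists followed at 22169484 to 22169936 (DEK KO replicate 1, fold 3.09) and at 22200761 to 22201625 (DEK KO replicate 1, fold 3.77, and WT control replicate 2, fold 3.25). The first region called in every list, 71.8 kb from the stretch (22208792 to 22209490), was stronger, with folds of 5.63 and 5.99 in DEK KO and 6.03 and 5.41 in the controls. So the nearest region in every list was farther off on the DMRTA1 side. The stretch ends by construction at the nearest call of any list, and 29.4% of all regions of the series were in 1 list alone. The edges of other stretches were not examined, so weak calls there are a description.

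MTAP was densely marked in the part of its span farther from the stretch. Across its span there were 12 regions, and 8 of them appeared in every list, where 45.3% of all regions of the series did. Beyond 21874431, the only region in every list before the stretch was the one at 21919462 to 21920431. By list the MTAP span held 10 and 10 peaks in DEK KO replicates 1 and 2 and 8 and 11 in WT control replicates 1 and 2, so the groups overlapped. The region at its start (21802060 to 21803810) had folds of 7.65 and 8.10 in DEK KO and 7.66 and 6.95 in the controls, which placed it between percentiles 81.9 and 87.6 of the lists.

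The strongest region of the window by rank was inside MTAP, 33.3 kb from its start (21835959 to 21837014). It stood at percentiles 95.8 and 95.8 in DEK KO replicates 1 and 2, and 94.5 and 93.5 in WT control replicates 1 and 2, with folds of 7.36 and 8.79 in DEK KO and 7.70 and 7.38 in the controls. Another region of MTAP, over the pseudogene TUBB8P1 (21812157 to 21814020), had folds of 9.82 and 10.3 in DEK KO and 10.4 and 8.37 in the controls and was the third by rank. Further along the gene, the regions at 21863359 to 21864452 and 21873474 to 21874431 had folds between 8.08 and 11.2 in all libraries.

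Between the stretch and the end of DMRTA1 there were 25 regions, 12 of them called in all 4 lists, a share near the 45.3% over all regions of the series. The strongest (22395426 to 22396531) lay 50.3 kb below DMRTA1. DEK KO replicates 1 and 2 had folds of 10.8 and 12.0, and WT control replicates 1 and 2 had 12.9 and 11.2. A region at 22237511 to 22239442 had folds of 9.33 and 11.9 in DEK KO and 9.82 and 11.1 in the controls. At 22307168 to 22308726, 138.1 kb from DMRTA1, a region singled out after its values were seen had folds of 7.21 and 6.48 and percentiles of 70.0 and 48.5 in DEK KO, and folds of 9.26 and 9.94 and percentiles of 83.8 and 86.4 in the controls.

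DMRTA1 itself, 309.9 kb beyond the stretch, had a peak at its start in every library. The region there (22446571 to 22448750) spanned 2180 bp, the widest of the window. Its folds were 6.20 and 7.24 in DEK KO and 6.32 and 7.91 in the controls, at percentiles of 80.9 and 82.6 in DEK KO and 79.3 and 90.7 in the controls. The gene held 1 other region (22454000 to 22454257), called only in DEK KO replicate 1 with a fold of 6.18.

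**Figure D2:**
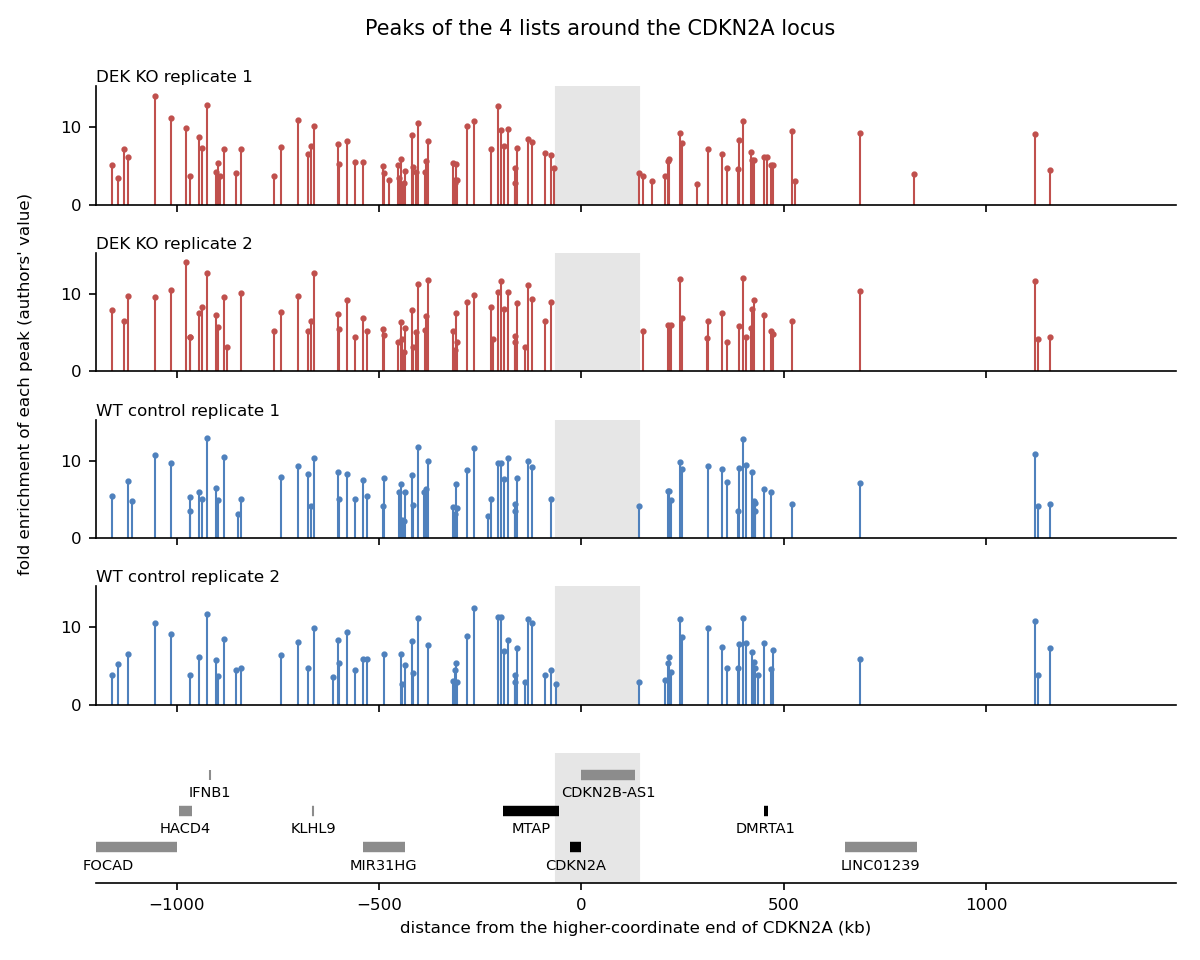
Fold enrichment of each peak as the authors' caller wrote it (vertical lines) over the whole window for DEK KO replicates 1 and 2 and WT control replicates 1 and 2, against the distance in kb from the higher-coordinate end of CDKN2A, with genes below (members black, others grey). Peaks are frequent from FOCAD to MTAP, absent over the grey stretch, frequent again up to DMRTA1 and sparse above it.

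Peak density set the stretch apart from the segments beside it. From the MTAP start to the stretch there were 77.4 and 77.4 peaks per Mb in DEK KO replicates 1 and 2 and 61.9 and 85.1 in WT control replicates 1 and 2. From the stretch to the end of DMRTA1 there were 62.7 and 53.3 per Mb in DEK KO and 56.5 and 59.6 in the controls. In the 1 Mb below MTAP the densities were 54.0 and 52.0 per Mb in DEK KO and 49.0 and 40.0 in the controls. In the 1 Mb above DMRTA1, which holds no protein-coding gene, there were 8 and 7 peaks in DEK KO and 6 and 6 in the controls. The segment bounds at the stretch were set by the peaks themselves, so these densities are a description.

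**Figure D3:**
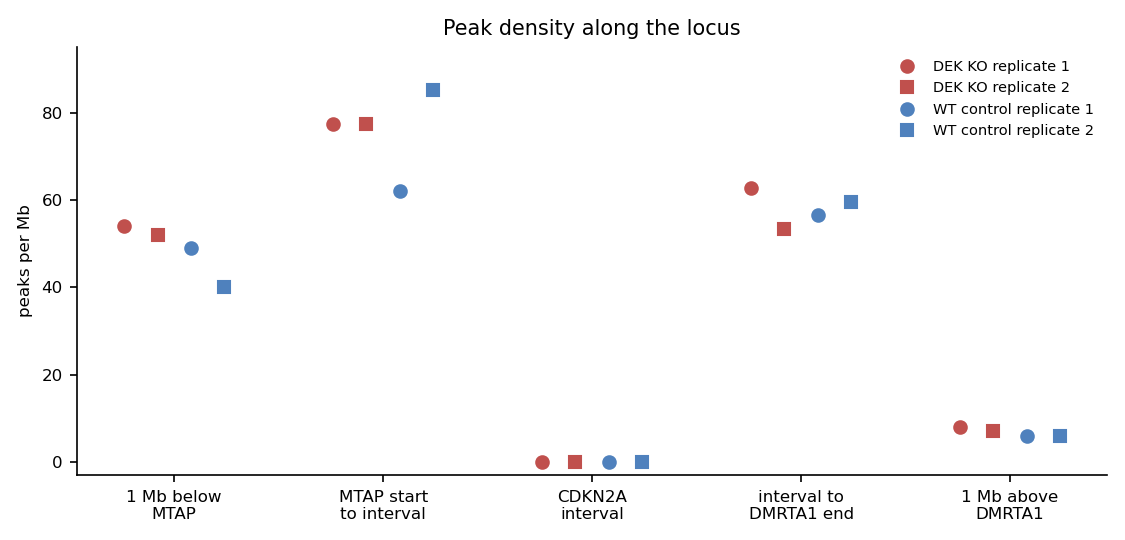
Peaks per Mb in 5 segments of the window, 1 point per library (circles replicate 1, squares replicate 2; DEK KO red, WT control blue). The stretch over CDKN2A is at 0 in all libraries between neighbours at 53.3 to 85.1 per Mb, and the segment above DMRTA1 is at 6 to 8.

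The part above DMRTA1 held the other long stretches without peaks, and they contained no protein-coding gene. They measured 159.4 kb (22523419 to 22682812), 132.4 kb (22684111 to 22816499) and 300.009 kb (22817482 to 23117490), and 1 of 338.6 kb (23153488 to 23492116) reached past the window. Within the window the longest was therefore not the one over CDKN2A but the last, of which 302.3 kb lay inside. These stretches crossed LINC01239 and other noncoding RNA genes. An isolated region between them, inside LINC01239 (22682813 to 22684110) and also singled out after its values were seen, had folds of 9.22 and 10.4 in DEK KO and 7.07 and 5.90 in the controls.

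In all, the window held 55 annotated genes, 23 of them protein-coding. Of the members, MTAP and DMRTA1 had a peak within 1 kb of a gene end in all 4 lists, and CDKN2A and CDKN2B had none in any list. Over the 19974 protein-coding genes of the series, 59.3% had such a peak in all lists and 30.8% in none. Apart from the members, KLHL9, an adaptor of a ubiquitin ligase used in mitosis, was the only protein-coding gene of the window with a gene-end peak in every list. Its region (21334656 to 21335674) had folds of 10.1 and 12.7 in DEK KO and 10.4 and 9.97 in the controls. FOCAD, which encodes focadhesin, had none at the outer ends of its span, but a peak in all 4 lists covered its promoter window, which lies inside the span and below the window.

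The type I interferon genes below MTAP, which encode antiviral cytokines, were nearly free of gene-end peaks. Of 16 protein-coding members, 15 had none in any list and IFNW1 had one in DEK KO replicate 1 and WT control replicate 2 alone, with folds of 4.12 and 4.43. Over all protein-coding genes, 30.8% had none in any list. Where the promoter table held a window for an interferon gene, the window had 1 to 3 CG pairs. Of the 4018 protein-coding promoter windows with 0 to 4 CG pairs, 81.4% had no peak in any list. A lack of peaks was thus common in promoter windows of this makeup. These windows span 300 bp and the gene-end measure reaches 1 kb to each side, so the shares are of unlike measures. None of the interferon genes lay in a stretch of 100 kb or more without peaks. The genes IFNA21, IFNA4, IFNA7, IFNA10, IFNA16 and IFNA17 lay together in the longest, of 81.2 kb, which is shorter than the one over CDKN2A. Strong regions stood between the genes, such as 1 at 6.41 kb from IFNB1 (21069743 to 21070693) with folds of 12.9 and 12.7 in DEK KO and 13.0 and 11.7 in the controls.

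MIR31HG, the host gene of the microRNA gene MIR31, had a peak at its start in every list (21558808 to 21560565), with folds of 4.36 and 5.61 in DEK KO and 5.89 and 5.15 in the controls. Its span held 11 regions. Between it and MTAP lay the region second by rank (21591116 to 21592448), with folds of 10.6 and 11.3 in DEK KO and 11.8 and 11.1 in the controls. HACD4, a gene of fatty acid elongation, also had no peak at its promoter window, which holds 24 CG pairs, but its span held 3 regions.

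DEK KO and WT control were compared by the number of peaks in the window. It was 92 and 86 in DEK KO replicates 1 and 2, against 81 and 76 in WT control replicates 1 and 2, so both DEK KO lists held more. The means were 89.0 ± 4.24 in DEK KO and 78.5 ± 3.54 in the controls, a difference of 10.5 (exact permutation test, two-sided, p = 0.333, the smallest possible with 2 against 2). The DEK KO lists were longer as a whole. As a share of the chromosome 9 peaks of each list, the window took 1.92% and 1.85% in DEK KO and 1.95% and 1.83% in the controls, a difference of −0.0016 percentage points (exact permutation p = 1.00), which no longer had the same sign.

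Regions with a peak in each DEK KO library and in no control, named KO-only here, numbered 7 of 109 in the window (6.42%). Over all regions of the series the share was 6.26%, so the window stood near the background. The opposite kind, present in each control and in no DEK KO library and named WT-only, numbered 0 in the window, against 2.57% over all regions. When peaks with a −log10 q under 5 were dropped, 2 regions were WT-only, and with each library left out in turn 3 to 5 were. KO-only regions were 10 and 16 without DEK KO replicates 1 and 2, and 15 and 10 without WT control replicates 1 and 2, because leaving out a library makes the rule easier to meet. Regions in all 4 lists made up 54.1% of the window and 45.3% of the series, and those in 3 lists 15.6% and 11.2%. Regions in 1 list of each genotype, named mixed, made up 5.50% of the window and 5.33% of the series, and regions in 1 list alone 18.3% and 29.4%.

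The strongest KO-only region lay inside HACD4 (21016924 to 21017720). DEK KO replicates 1 and 2 had folds of 9.95 and 14.2 there, at percentiles of 69.4 and 83.5 of their lists. Next by fold came regions inside FOCAD (20865330 to 20865791), with folds of 7.20 and 6.56, and 32.3 kb below DMRTA1 (22414035 to 22414486), with folds of 6.80 and 5.67. By percentile their order was reversed, with 51.3 and 39.4 in FOCAD and 62.7 and 41.1 below DMRTA1. The other 4 had lower folds. They lay 2.70 kb from IFNA14 (21235731 to 21236300, folds 3.77 and 5.18), between MIR31HG and MTAP (21585867 to 21586454, folds 4.19 and 5.06, and 21607514 to 21607857, folds 4.26 and 5.37), and 10.9 kb above the stretch as given above. None lay in the span of a member or within 1 kb of a gene end.

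Whether the absence of peaks at CDKN2A and CDKN2B went with the makeup of their promoters was examined by CG pairs, since CG-rich promoters are often open in many cell types. The windows held 28 and 26 CG pairs at the CDKN2A starts of higher and lower coordinate and 25 at CDKN2B, more than the 15 at MTAP and the 16 at DMRTA1. The median over 22132 protein-coding promoter windows was 21. Of the 2765 windows with 25 to 29 CG pairs, 75.6% had a peak in all 4 lists (95% exact interval 73.9 to 77.1) and 19.6% had none in any list. Among all windows, 50.5% had a peak in all 4 lists. The CDKN2A and CDKN2B windows were thus among the minority of their CG class without any peak, while MTAP and DMRTA1 were on the side of the 63.8% of windows with 15 to 19 CG pairs (61.7 to 65.9). The window of CDKN2B-AS1, a noncoding gene that these shares leave out, held 36 CG pairs and had no peak in any list.

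**Figure D4:**
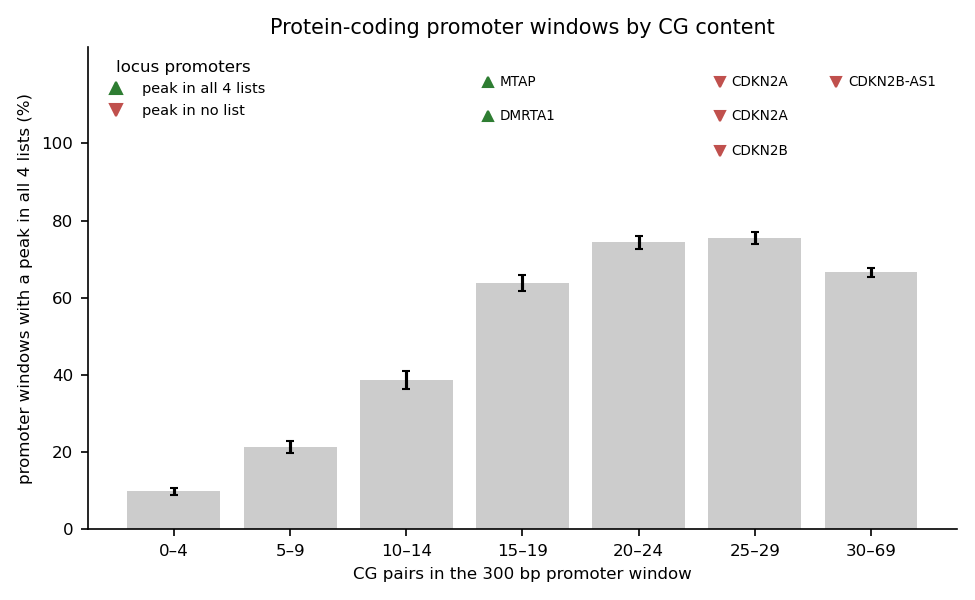
Share of protein-coding promoter windows (300 bp) with a peak in all 4 lists, by number of CG pairs, with exact 95% intervals that cover counting error only. Triangles above the bars place the promoters of the locus by their CG pairs. CDKN2B-AS1 is a noncoding gene and is not counted in the bars. MTAP and DMRTA1 have a peak in all 4 lists, and both CDKN2A windows, CDKN2B and CDKN2B-AS1 have none.

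The letters GGGCGG, the core of the GC box bound by SP1, were counted on both strands of the same windows. They occurred 2 times at MTAP, 2 at the CDKN2A start of lower coordinate, 0 at its start of higher coordinate, 2 at CDKN2B and 3 at DMRTA1. Of all protein-coding promoter windows, 56.3% held them at least 1 time. Each occurrence contains a CG pair and so overlaps the letters in capitals above. Among these few windows, the motif occurred both in windows with a peak and in windows without. Whether it goes with peaks over all promoter windows was not tested.

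The stretch over CDKN2A was also placed among all intervals between neighbouring regions on chromosomes 1 to 22 and X. There were 138426 such intervals with a median of 9800 bp, and 821 were at least as long as this one, which is counted among them. Most of the 821, namely 626, held no whole protein-coding gene. At least 2 whole protein-coding genes lay in 110 of them. Promoter windows could be counted in the 767 of them on chromosomes with windows in the table, and not in the other 54. Of the 767, 109 held at least 1 protein-coding promoter window with 15 or more CG pairs. There were 22 that held 3 or more protein-coding promoter windows with at least 15 CG pairs, and the CDKN2A stretch, with 3, was the shortest of these by construction. Many of the others held several genes of 1 name series, such as PRR20A to PRR20E, NPIPA8 and NPIPA9, MAGED4 and MAGED4B, and the near-identical copies SMN1 and SMN2. Fewer were over imprinted genes, such as NDN and SNRPN, and PEG3. These examples were named after their values were seen. Centromeres and assembly gaps were not taken out of the 138426 intervals, and how well reads can be placed in these intervals was not tested.

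**Figure D5:**
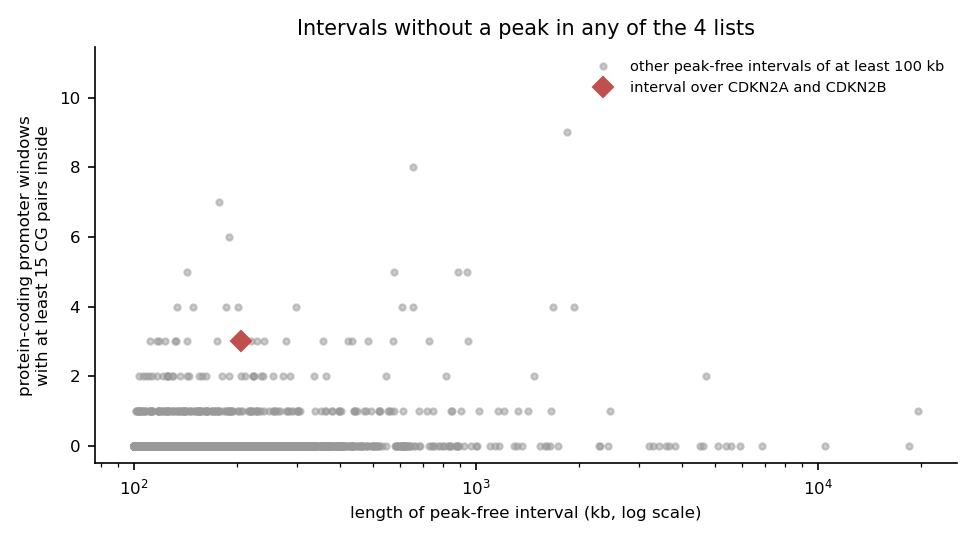
Length in kb (log axis) of each interval of at least 100 kb without a peak in any list, against the number of protein-coding promoter windows with at least 15 CG pairs inside it, for chromosomes with windows in the promoter table. The red diamond is the interval over CDKN2A and CDKN2B, at 205.1 kb with 3 such windows; most of the intervals plotted are at 0.

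The relatives and partners of the members were read by the same measure, a peak within 1 kb of a gene end in all 4 lists, which 59.3% of protein-coding genes had. Of the INK4 inhibitors, CDKN2C (p18) and CDKN2D (p19) had one. The highest fold at an end of CDKN2C was 8.72 and 11.5 in DEK KO replicates 1 and 2 and 10.5 and 9.60 in WT control replicates 1 and 2, and that of CDKN2D was 6.30 and 8.48 in DEK KO and 7.47 and 7.08 in the controls. Thus the INK4 genes on other chromosomes carried peaks where those at 9p21 had none. Of the CIP and KIP inhibitors, which block a wider range of cyclin kinases, CDKN1A and CDKN1B had a peak in all lists. CDKN1C had one in both DEK KO lists alone, with folds of 3.67 and 2.72.

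Among 15 genes on which these inhibitors act, directly or through RB1, 14 had a gene-end peak in all 4 lists. They included CDK4, with folds of 6.83 and 7.98 in DEK KO and 8.18 and 7.62 in the controls, CDK6, CCND1, CCND3 and RB1. The exception was CCND2, the gene of cyclin D2, with none in any list, though its span held 1 region called in all 4 lists. MDM2, the ubiquitin ligase that ARF restrains, and its relative MDM4 each had one in every list.

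Of 15 genes of methionine salvage and the PRMT5 complex, MTAP included, 13 had a gene-end peak in all lists. PRMT5, with folds of 10.0 and 11.6 in DEK KO and 10.1 and 10.2 in the controls, its partner WDR77, its adaptor RIOK1, and MAT2A, which makes S-adenosylmethionine, were among them. The exceptions were MAT2B with a peak in 1 list and SMS with peaks in 2. Of 7 DM-domain genes checked, only DMRTA1 and DMRT1, a regulator of testis development, had one in all lists, and DMRT2, DMRT3, DMRTA2, DMRTB1 and DMRTC2 had none in any. DMRTA1 thus carried a peak in a family that mostly did not.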

How the data were processed

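The measurement is ATAC-seq in 4 libraries of 786-O cells, 2 DEK KO and 2 WT control, each with 1 peak list. The labels' extraction text describes RNA, so the ATAC library protocol is not known. MACS2 2.2.7.1, Picard 2.26.9, SAMtools 1.7, Bowtie2 2.2.5 and cutadapt 1.18 are among the tools in the submitters' processing notes, with GRCh38 and hg38 as builds. Settings, such as any shift of reads for the transposase, are not given. In this peak format the deposited fold is a ratio of signal to background, and the deposited p-value and q-value are given as −log10. The deposited score equalled the whole part of 10 times −log10 q in at least 99.957% of rows. The lowest −log10 q was 1.30 to 1.32 in every list, that of a q-value of 0.05. Ranks were taken within a list, and values of different lists are set side by side only as a description. Read depth is unknown, so no limit can be set on what went uncalled.

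Only chromosomes 1 to 22 and X were used, leaving out 135 to 167 peaks per list. Peaks were merged at an overlap of at least 1 bp, and each was given a percentile of −log10 p within its list. Where a list had several peaks in a region, the one with the highest −log10 p is quoted. Gene spans and promoter windows came from RefSeq tables of GRCh38.p14. The promoter table covered 15812 protein-coding genes on 22 of these chromosomes. Per-library values were compared with exact permutation tests. Exact 95% binomial intervals over promoters cover counting error only. The merging and interval steps were tested on simulated lists. The files hold peaks, and no count test was used.

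The members, the gene lists and the measures were chosen with earlier results of these data known. Named were the members, the other genes of the window, the 5 regions on each side of the stretch, the 5 regions of highest mean percentile, all KO-only and WT-only regions, and examples from each related list. Some genes of these lists are not reported here. Any other region was chosen after its values were seen. Alternatives were a −log10 q of at least 5, lists of equal length, a 100 bp overlap, other flanks, a 5 kb gene-end distance, and each library left out. Python 3.11.15, numpy 2.4.6, pandas 2.3.3, scipy 1.17.1 and matplotlib 3.10.9 were used.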

Additional observations from a re-analysis of the deposited data

How the results depend on the processing

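The peak-free stretch over CDKN2A and CDKN2B, added as a result after the data were seen, measured 205.1 to 208.1 kb with each library left out, 208.1 kb in lists cut to equal length and 219.0 kb with −log10 q of at least 5. In each of these settings, and at a gene-end distance of 5 kb, the number of members with a gene-end region was 2. The longest stretch in the window was 302.3 to 433.5 kb with each library left out (the highest without DEK KO replicate 1, whose peak at 22816500 to 22817481 lies between 2 shorter stretches), 433.4 kb with −log10 q of at least 5, 205.1 kb with 0.5 Mb flanks, when it is the one over CDKN2A, and 456.1 kb with 2 Mb flanks. The difference in peak number, 10.5, was 7.5 to 13.5 with each library left out and 3.0 in lists cut to equal length (exact permutation p = 1.00), and it turned to −0.0016 percentage points as a share of chromosome 9 peaks. Taken within replicate numbers (replicate block), it was again 10.5, with an exact sign-flip p of 0.5, the smallest that 2 pairs allow. The numbers are not shown to pair the libraries, since same-numbered deviations had a correlation of 0.0124 over 62686 regions. KO-only regions numbered 5 in lists cut to equal length, and 10 to 16 with each library left out. WT-only regions numbered 2 with −log10 q of at least 5 and 3 to 5 with each library left out. Read depth, which would set what a missing peak can exclude, is not in the lists.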

Other observations

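Within MTAP, some regions had a low fold and yet a high −log10 q. The region at 21831888 to 21832444 had folds of 4.70 and 4.52 in DEK KO and 4.35 and 3.88 in the controls, with −log10 q of 28.2 and 27.9 in DEK KO and 27.2 and 21.1 in the controls. On the other side of the stretch, the region at 22355093 to 22355838 had folds of 4.80 and 3.80 in DEK KO and 7.28 and 4.72 in the controls, with −log10 q of only 5.75 and 3.41 in DEK KO and 13.4 and 6.21 in the controls. Fold and −log10 q therefore ordered these regions differently in DEK KO replicate 1 and in the controls. In DEK KO replicate 2 both values were higher in the MTAP region. Ranks by fold and by −log10 q were not compared over the whole locus.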
